A study of Mus musculus with 6 samples.

Results

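The genes described here encode ATP-dependent chromatin remodelers, 45 in all: subunits of the SWI/SNF complexes, of NuRD and of the ISWI complexes, the other CHD proteins, and the ATPase of INO80. They were chosen by name, and a peak was counted as theirs when the deposited table gave 1 of these symbols as its nearest transcription start site. In this way 43 of the 45 genes held 389 of the 109859 ATAC-seq peaks, 76 of them within 1 kb of the start site (promoter peaks, of 21892 in the table) and 313 farther away (distal peaks, of 87967). ATAC-seq reads open chromatin by letting the Tn5 transposase insert sequencing adapters where DNA is accessible. The libraries came from 3 Mel18 knockout mice, in which Mel18 had been removed conditionally in the blood system, and from 3 wildtype mice. All were made from lineage-negative (Lin-) bone marrow cells, the fraction enriched for hematopoietic stem and progenitor cells that remains once mature blood cells have been taken out. The labels give no Cre driver, strain, age or sex. The question was whether loss of Mel18, a Polycomb protein of the repressive complex PRC1 encoded by Pcgf2, alters accessibility.

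Remodelers use ATP to slide, evict or space nucleosomes. SWI/SNF ATPases open regulatory DNA and are known opponents of Polycomb repression, while NuRD joins a CHD-family ATPase to histone deacetylases and can close chromatin. ISWI motors space nucleosomes evenly, and the ISWI ATPase Smarca5, the NuRD ATPase Chd4 and the SWI/SNF ATPase Smarca4 are all known from mouse genetics to be needed for normal blood formation.

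The knockout libraries held 16709921, 14487908 and 14797735 reads in peaks and the wildtype libraries 12000808, 12166259 and 13769335, and the remodeler peaks held 67581 to 78010 of these in knockout and 57783 to 69237 in wildtype. Every knockout library was deeper than every wildtype library. The TMM scaling factors did not overlap either, at 1.03 to 1.05 in knockout and 0.941 to 0.974 in wildtype. Wildtype library 3 stood apart in its marker genes. The promoter peaks of 4 erythroid marker genes summed to 51.6 to 88.0 CPM (read counts scaled to library size) in the knockout libraries, against 140.6 in it and 50.2 and 64.9 in the other wildtype libraries. Those of 4 neutrophil genes summed to 50.5 to 55.9 CPM in the knockout libraries, against 25.9 in it and 50.6 and 53.6 in the other wildtype libraries. Counts, and the peaks whose call changes, are therefore also given without this library. No peak was assigned to Pcgf2, and the closest one, 16 bp from the gene and assigned to Psmb3, held 17.7 ± 1.83 CPM in knockout and 16.7 ± 3.04 CPM in wildtype (SD, n = 3 each), which does not test the deletion. Stem and progenitor markers had promoter peaks at 8 of 9 genes, summing to 179.2 to 183.3 CPM in knockout and 184.5 to 219.7 CPM in wildtype. Signal remained at genes of mature cells: 20.9 to 27.0 CPM in knockout and 28.3 to 41.4 CPM in wildtype over 4 of 6 T and NK cell genes (none at Cd3d and Cd3e), and 14.5 to 20.5 CPM in knockout and 20.3 to 31.8 CPM in wildtype over 4 of 5 B cell genes. Macrophage genes (3 of 4, none at C1qa) gave 41.2 to 42.1 CPM in knockout and 30.1 to 42.0 CPM in wildtype. In wildtype library 3 the T and NK cell sum (41.4 CPM) and the B cell sum (31.8 CPM) were the highest of all libraries and the macrophage sum (30.1 CPM) the lowest. For stromal and endothelial genes, 1 of 4 had a promoter peak. The part of these cells in the results below was not tested, and fewer cells of a type and less accessibility per cell cannot be told apart in bulk libraries.

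The promoters show what kind of start site these genes have. RefSeq windows of 300 bases, from 250 before to 50 after a start (build GRCm38.p6), were found for 33 of the 45 genes. Of these, 27 windows from different genes lay under a peak assigned to the same gene. The windows of Pbrm1 and Gatad2b, under peaks assigned to Gnl3 and Mir7012, were not counted. The 150 bases upstream of the start follow, 5′ to 3′ on the gene's strand, for the 5 windows whose peak had the smallest p between genotypes (Smarca5, Gatad2a, Chd6, Chd8 and Mbd3) and for the 2 whose peak differed least (Arid1a and Mta1). The windows of Chd8 and Arid1a lie under peaks that the table lists as distal. Capitals mark matches, on either strand, to GGGCGGG (the SP/KLF motif, CCCGCCC on the other strand), CCAAT (NFY, ATTGG on the other strand), CCGGAAG (ETS), GCGC and TGCGC with any 1 base between them (NRF1), TGACGTNA (CRE), AAGATGGC (YY1), CACGTG (E-box) and the TATA-box motif TATAAA.
Smarca5: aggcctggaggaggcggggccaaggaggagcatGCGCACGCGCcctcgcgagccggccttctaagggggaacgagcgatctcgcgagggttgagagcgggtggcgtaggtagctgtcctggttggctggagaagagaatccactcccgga
Gatad2a: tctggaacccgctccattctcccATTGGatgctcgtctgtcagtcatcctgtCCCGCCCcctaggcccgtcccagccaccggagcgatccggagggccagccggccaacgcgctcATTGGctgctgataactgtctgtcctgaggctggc
Chd6: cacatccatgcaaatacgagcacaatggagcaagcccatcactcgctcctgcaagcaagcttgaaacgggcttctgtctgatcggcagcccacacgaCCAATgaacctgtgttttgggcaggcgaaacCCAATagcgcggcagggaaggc
Chd8: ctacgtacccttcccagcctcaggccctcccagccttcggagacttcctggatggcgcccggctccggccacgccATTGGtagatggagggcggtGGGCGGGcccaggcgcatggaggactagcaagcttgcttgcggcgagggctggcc
Mbd3: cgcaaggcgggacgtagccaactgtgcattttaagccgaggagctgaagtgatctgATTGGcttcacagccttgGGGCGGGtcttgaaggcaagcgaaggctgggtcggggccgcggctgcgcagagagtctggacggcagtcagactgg
Arid1a: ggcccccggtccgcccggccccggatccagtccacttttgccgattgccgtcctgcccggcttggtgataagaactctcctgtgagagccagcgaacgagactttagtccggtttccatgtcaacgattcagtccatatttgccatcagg
Mta1: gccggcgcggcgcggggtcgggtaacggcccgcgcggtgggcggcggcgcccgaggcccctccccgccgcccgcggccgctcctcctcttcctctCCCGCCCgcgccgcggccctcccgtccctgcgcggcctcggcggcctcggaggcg
These stretches lie at chr8:80739460-80739609 for Smarca5, chr8:69996385-69996534 for Gatad2a, chr2:161109087-161109236 for Chd6, chr14:52257761-52257910 for Chd8, chr10:80399532-80399681 for Mbd3 and chr4:133756770-133756919 for Arid1a, all on the minus strand, and at chr12:113098128-113098277 on the plus strand for Mta1.

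All 27 windows were CpG-rich. Their ratio of observed to expected CpG ran from 0.602 to 1.06 with a median of 0.90, and all 27 passed a ratio of 0.6. Since windows under a peak are richer in CpG than others, the background given first is the 11450 genes with a RefSeq window under any deposited peak. That peak could be assigned to any gene, a wider rule than for the 27. The share of all 32851 windows follows it. The ratio of 0.6 was passed by 72.0% and 35.8% of these. Median GC content was 66.0% in the 27, against 61.3% and 52.7%. The SP/KLF motif was present in 20 of the 27 (74.1%, against 47.5% and 25.6%), the ETS motif in 5 (18.5%, against 17.8% and 8.86%) and the NRF1 motif in 4 (14.8%, against 10.5% and 4.60%). CCAAT was in 8 (29.6%, against 37.9% and 37.4%), the E-box in 3 (11.1%, against 10.6% and 7.15%), the YY1 motif in 2 (7.41%, against 4.56% and 2.75%), and TATAAA in 1, that of Mbd3, outside the stretch printed (3.70%, against 6.46% and 13.6%). The CRE motif was in 0, against 5.11% and 2.93%. With 27 windows, each window weighs 3.70 percentage points, and no share was tested. All 5 windows of the smallest p hold the SP/KLF motif, those of Smarca5 and Chd6 outside the stretch printed. Those of Gatad2a, Chd6, Chd8 and Mbd3 hold CCAAT, that of Smarca5 the NRF1 motif and that of Chd8 the ETS motif. The next windows by p, those of Smarca2 and Hdac2, hold no CCAAT. The window of Mta1 is the richest in CpG of the printed stretches, with 31 CG pairs in 150 bases, and that of Chd6 the poorest, with 8.

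The 389 peaks were spread unevenly over the genes. Chd7, a long gene whose human counterpart is mutated in CHARGE syndrome, had 49, Arid1b had 43, Chd9 had 33 and Mbd2 had 24. Smarcc2, Bcl7b, Bcl7c and Dpf2 had 1 each, over the start site. Smarca1, the X-linked ISWI ATPase, and Smarcd2 had none. Smarcd3, Chd3, Gatad2b and Chd8 had distal peaks only, which leaves 39 genes with a promoter peak. For Chd8 and Gatad2b this follows from the annotation: the table places the Chd8 start 20188 bp from the RefSeq one and the Gatad2b start 47568 bp away. The RefSeq start of Chd8 lies under a peak that the table lists as distal, and that of Gatad2b under a peak assigned to Mir7012. Of 33 starts compared, 26 matched RefSeq within 10 bp and 30 within 1000 bp. The start of Pbrm1 lies in a peak shared with Gnl3, to which the table assigns it. Of the 76 promoter peaks, 34 overlapped a start site, and 184 of the 313 distal peaks lay in introns and 116 between genes. Promoter peaks were wider (median 303.5 bp, against 192 bp) and stronger (median 14.1 CPM, range 1.20 to 193.8, against 3.28 CPM, range 0.639 to 154.5).

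In the main fit, promoter accessibility of the remodeler genes was on balance lower in the knockout libraries, by a small amount. Most promoter peaks of the table shared this direction, and among strong peaks the degree was about the same. The size depended on the normalization and on wildtype library 3. No remodeler peak passed an adjusted p of 0.05 (edgeR quasi-likelihood test, Benjamini-Hochberg over all peaks, lowest adjusted p = 0.0606), and 0 of all 109859 peaks did (0%). At an unadjusted p under 0.05, 21 of the 76 promoter peaks were lower in knockout (27.6%, against 19.1% of all promoter peaks) and 0 were higher (1.11% of all). The median log2 fold change was -0.22 over the 76 and -0.15 over all promoter peaks, and 64 of the 76 were below 0 (84.2%, against 69.8%). Every knockout library lay below every wildtype library at 26 peaks (34.2%, against 23.6% of all promoter peaks) and above at 4 (5.26%, against 3.63%).

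The lower calls sat almost all among strong peaks. Of the 76 promoter peaks, 32 were in the strongest decile of all peaks. All 32 had a negative log2 fold change, as did 93.5% of the 7553 promoter peaks there. At an unadjusted p under 0.05, 19 were lower (59.4%, against 50.3% of the 7553), with a median of -0.24 against -0.25. Of the 27 in the next 4 deciles, 1 was lower (3.70%, against 3.41%), with a median of -0.13 against -0.08. Of the 17 in the 5 weakest deciles, 1 was lower (5.88%, against 1.66%) and 13 were negative, with a median of -0.20, against 0.0058 over all promoter peaks there. Each library was then also normalized along the level of the peaks (trended normalization). With it, 6 of the 76 were lower (7.89%, against 3.96% of all promoter peaks) and 1 was higher (1.32%, against 1.82%). The median was -0.12 against -0.07. The 44 peaks below the strongest decile then had a median of -0.18, against -0.10 over all such promoter peaks, and 38 of the 44 were negative (86.4%, against 64.0%). Leaving out wildtype library 3, 19 were lower (25.0%, against 20.6% of all promoter peaks) and 1 was higher (1.32%, against 3.35%). The median was -0.13 against -0.08, and 8 passed an adjusted p of 0.05 (8.23% of all promoter peaks did). In that fit the 44 weaker peaks had a median of 0.06, against 0.04, and 20 of the 44 were negative (45.5%, against 45.1%). With both changes, 2 of the 76 were lower (2.63%, against 4.53% of all promoter peaks) and 2 higher (2.63%, against 5.91%). The median was 0.00 against 0.01.

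**Figure D1:**
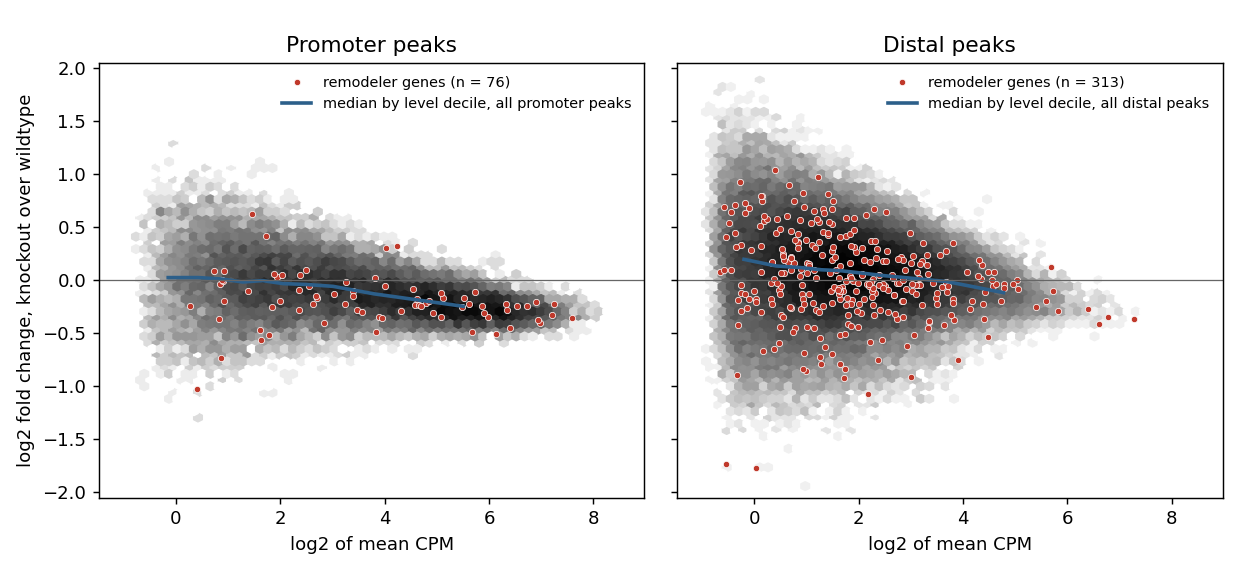
Log2 fold change (knockout over wildtype, y axis) against log2 of mean CPM (x axis) for promoter peaks (left) and distal peaks (right). Red points are the 76 and 313 peaks of remodeler genes. Grey shading is the log-scaled density of all promoter peaks (left) or all distal peaks (right). The blue line is the median of the same peaks by level decile, which falls below 0 among strong peaks. The red promoter points lie mostly below 0 at all levels (13 of 17 in the 5 weakest deciles and all 32 in the strongest). In the strongest decile 93.5% of all promoter peaks do so.

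Each gene was then represented by its strongest promoter peak. Of these 39 main promoter peaks, 36 had a negative log2 fold change (92.3%, against 79.5% of the main promoter peaks of all 13009 genes with one), 19 were lower at an unadjusted p under 0.05 (48.7%, against 30.2%) and 0 were higher (0.646% of all). The median was -0.24 (range -0.51 to 0.32), against -0.20. Every knockout library lay below every wildtype library at 21 of them (53.8%, against 34.9%) and above at 2 (5.13%, against 2.21%). More of them were strong: 30 of the 39 belong to the strongest decile, and there 18 of 30 were lower (52.8% of the 6990 main promoter peaks of that level were). The counts by complex are to be read against these shares. With trended normalization 2 of the 39 were lower (5.13%, against 4.74% of all) and 1 was higher (2.56%, against 2.34%). The median was -0.06, as over all genes. Without wildtype library 3 the median was -0.22, against -0.16, 18 were lower (46.2%, against 32.3%), and 7 passed an adjusted p of 0.05 (13.3% of all). Per kilobase of peak, the mean levels of the 39 ran from 11.8 CPM at Phf10 to 302 CPM at Chd6.

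**Figure D2:**
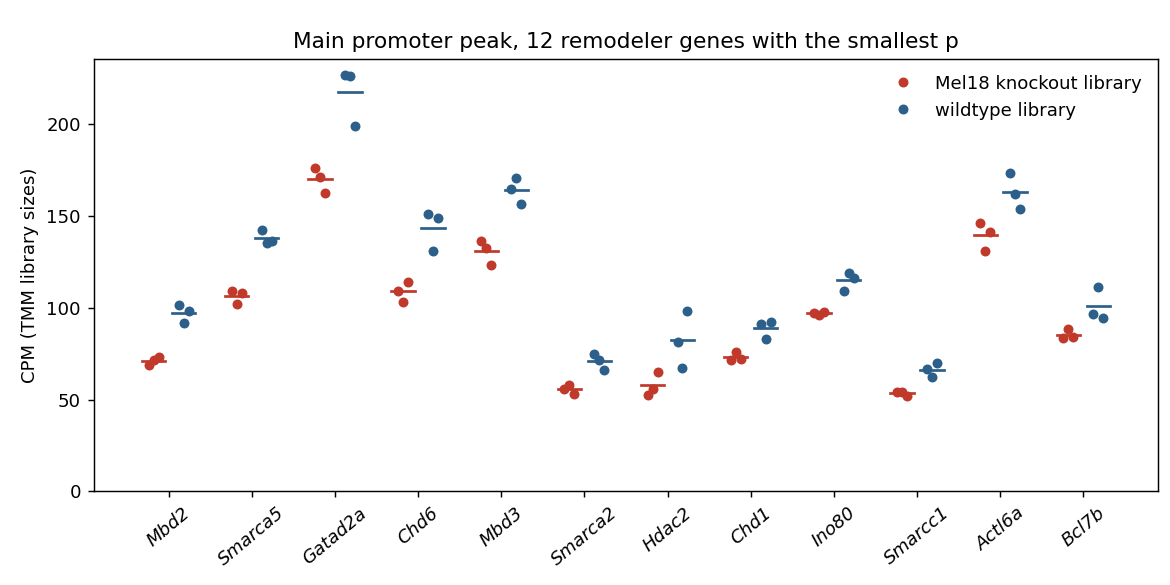
CPM in the main promoter peak (y axis) of the 12 remodeler genes with the smallest p, ordered by p. Red points are the 3 Mel18 knockout libraries and blue points the 3 wildtype libraries, with a bar at each mean. At each of the 12 genes all knockout points lie under all wildtype points, which the choice by p between these groups favours. Of the main promoter peaks of all genes, 34.9% do so, and 57.1% of those in the strongest decile.

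The SWI/SNF ATPases are Smarca2 (BRM) and Smarca4 (BRG1), of which each complex carries 1. At Smarca2 the promoter peak (chr19:26604840-26605245, mm10, over the start site) held 56.0, 58.2 and 52.9 CPM in the knockout libraries, against 75.0, 71.7 and 66.2 CPM in the wildtype libraries. All knockout values lay below all wildtype values, and the log2 fold change was -0.35 ± 0.0886 (SE, adjusted p = 0.160). It was -0.39 without wildtype library 3 (adjusted p = 0.0100) and -0.11 with trended normalization. Smarca4 had 53.1 ± 3.80 CPM in knockout and 62.7 ± 1.95 CPM in wildtype (SD, n = 3 each), again without overlap, and its log2 fold change was -0.24 (adjusted p = 0.430). It was -0.01 with trended normalization and 0.02 when wildtype library 3 was left out as well.

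Among the genes grouped here as SWI/SNF shared subunits, 8 of 9 main promoter peaks had a negative log2 fold change. Of these, 3 were lower at an unadjusted p under 0.05 (30.2% of all genes). The scaffold subunit Smarcc1 (BAF155) held 53.9, 54.4 and 52.0 CPM in knockout, against 66.8, 62.4 and 69.7 CPM in wildtype (chr9:110131669-110132184). Its groups did not overlap, and its log2 fold change was -0.31 ± 0.0872 (SE, adjusted p = 0.218), or -0.08 with trended normalization. The actin-related subunit Actl6a, the highest of this group per kilobase, held 146, 131 and 141 CPM in knockout, against 173, 162 and 154 CPM in wildtype (chr3:32708252-32708781). Here too every knockout library was lower, at -0.22 ± 0.0690 (SE, adjusted p = 0.285), but trended normalization turned the value to 0.12. Bcl7b held 83.6, 88.7 and 83.9 CPM in knockout, against 96.9, 111 and 94.3 CPM in wildtype (chr5:135168178-135169026). The log2 fold change was -0.24 ± 0.0820 (SE, adjusted p = 0.351), and 0.04 with trended normalization. The others lay between -0.29 for Smarcb1, a core subunit, and 0.10 for Smarce1, at adjusted p-values from 0.614 to 0.946.

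Other subunits were each listed here under 1 SWI/SNF complex, which need not be the only one that holds them. In canonical BAF, all 4 main promoter peaks were below 0, from -0.31 (Ss18) to -0.09 (Arid1b). Arid1a, its DNA-binding subunit and the highest of the 4 per kilobase, held 34.1, 36.5 and 27.7 CPM in knockout, against 35.4, 35.6 and 39.3 CPM in wildtype (chr4:133754240-133754618). These ranges overlapped, and the log2 fold change was -0.17 ± 0.129 (SE, adjusted p = 0.772), or -0.0076 with trended normalization. In PBAF, Arid2 held 41.3, 40.8 and 39.9 CPM in knockout, against 51.2, 43.0 and 50.8 CPM in wildtype (chr15:96286470-96286963). Its groups did not overlap, at -0.25 ± 0.106 (SE, adjusted p = 0.501), or -0.05 with trended normalization. Pbrm1, Brd7 and Phf10 had -0.35, -0.24 and -0.005. The main peak of Pbrm1 overlaps the RefSeq promoter window of Gnl3 and not that of Pbrm1. The shared peak at the start of Gnl3 and Pbrm1 had -0.32 (adjusted p = 0.329). Brd9, the bromodomain subunit of non-canonical BAF, held 70.5, 74.3 and 76.9 CPM in knockout, against 91.7, 83.9 and 83.8 CPM in wildtype (chr13:73937413-73938192). The groups were apart, at -0.23 ± 0.0791 (SE, adjusted p = 0.366), and trended normalization brought the value to 0.04. This peak also overlaps the RefSeq promoter window of Trip13.

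NuRD subunit genes had a group median of -0.34 over 8 main promoter peaks, all 8 negative, of which 5 were lower at an unadjusted p under 0.05 (30.2% of all genes, and 52.8% of those in the strongest decile). Mbd2, which binds methylated CpG, had the smallest p of all remodeler peaks. Its promoter peak (chr18:70568017-70568586) held 68.7, 71.5 and 73.3 CPM in knockout, against 102, 91.8 and 98.0 CPM in wildtype. The gap between the groups was wide against the spread inside them, and the log2 fold change was -0.45 ± 0.0767 (SE, adjusted p = 0.0606). It was -0.44 without wildtype library 3 (adjusted p = 0.00232) and -0.18 with trended normalization.

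Mbd3, the alternative MBD subunit, held 137, 132 and 123 CPM in knockout, against 165, 171 and 156 CPM in wildtype at its start site (chr10:80399419-80399924). No values overlapped, and the log2 fold change was -0.33 ± 0.0663 (SE, adjusted p = 0.0804). It passed without wildtype library 3 (-0.35, adjusted p = 0.00546), and trended normalization brought it to 0.01. The peak in its exon downstream, chosen after its values were seen, had -0.49 ± 0.102 (SE, adjusted p = 0.0915) and kept -0.28 with trended normalization. Gatad2a, which links the MBD subunit to Chd4, averaged 284 CPM per kilobase of promoter peak. It held 176, 171 and 163 CPM in knockout, against 227, 226 and 199 CPM in wildtype (chr8:69996135-69996817). Every knockout library was lower, at -0.35 ± 0.0659 (SE, adjusted p = 0.0651). Without wildtype library 3 it was -0.41 (adjusted p = 0.000898, the lowest of any remodeler peak in that fit), and with trended normalization 0.01.

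The deacetylase gene Hdac2 had the most negative value of the 39. Its peak (chr10:36974137-36975047) held 52.7, 55.6 and 65.3 CPM in knockout, against 81.1, 67.0 and 98.5 CPM in wildtype. The ranges nearly met, at -0.51 ± 0.135 (SE, adjusted p = 0.208), and wildtype library 3 was the highest value. Without that library the log2 fold change was -0.35 (adjusted p = 0.0539), and with trended normalization -0.26. Its partner Hdac1 had -0.22 (adjusted p = 0.588). Of the Mta genes, which encode scaffold subunits, Mta3 had -0.49 ± 0.184, Mta2 -0.11 ± 0.0929 and Mta1 -0.06 ± 0.260 (SE, adjusted p = 0.423, 0.785 and 0.975), and differences among them were not tested. Mta3 was singled out after its values were seen. All 3 of its promoter peaks had every knockout library below every wildtype library, as did 23.6% of all promoter peaks. The log2 fold changes of these 3 peaks were -0.49, -0.57 and -1.03. They were -0.47, -0.66 and -1.17 with trended normalization and -0.39, -0.41 and -0.79 without wildtype library 3. The first is the main peak, with means of 11.8 CPM in knockout and 16.6 CPM in wildtype. All 3 together held 15.2 and 22.0 CPM, so the others were weaker. Chd4, the NuRD ATPase, held 28.2, 26.3 and 22.9 CPM in knockout, against 29.5, 26.4 and 34.0 CPM in wildtype (chr6:125095719-125096298). Those values overlapped, at -0.22 ± 0.144 (SE, adjusted p = 0.723), or -0.09 with trended normalization.

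**Figure D3:**
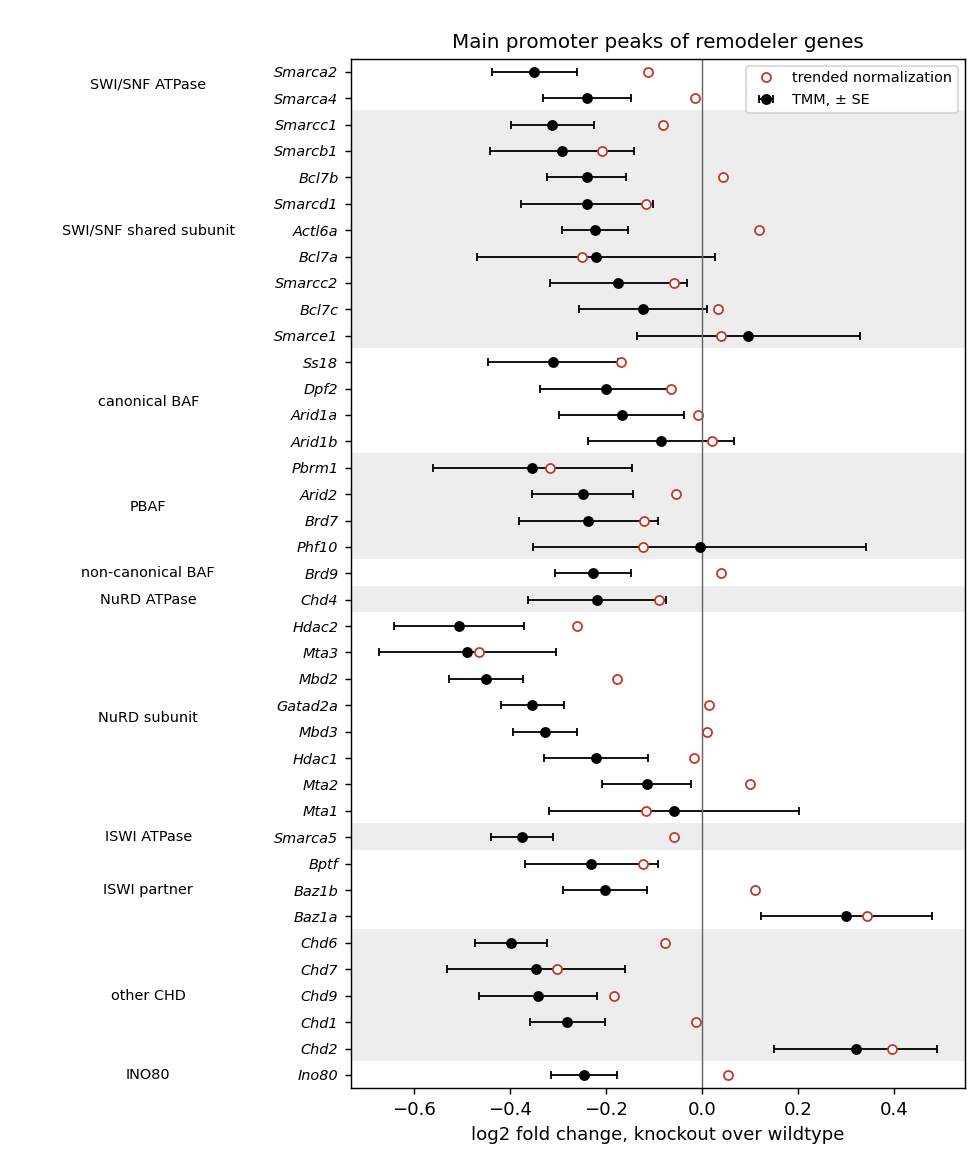
Log2 fold change (knockout over wildtype, x axis) of the main promoter peak of 39 remodeler genes, grouped by complex. Black points with bars are the values and their SE with TMM normalization, and open red circles the values with trended normalization; 36 black points lie left of 0, while the red circles centre near -0.06.

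Smarca5, the ISWI ATPase (SNF2H), held 109, 102 and 108 CPM in knockout, against 142, 135 and 137 CPM in wildtype at its promoter (chr8:80739005-80739898). The groups did not overlap, with an SD of 3.92 CPM in knockout and 3.75 CPM in wildtype, and the log2 fold change was -0.37 ± 0.0654 (SE, adjusted p = 0.0606). That value was -0.38 without wildtype library 3 (adjusted p = 0.00364) and -0.06 with trended normalization. The ISWI partner Baz1b (WSTF) held 115, 114 and 105 CPM in knockout, against 131, 142 and 112 CPM in wildtype (chr5:135186709-135187340). Its groups overlapped, at -0.20 ± 0.0876 (SE, adjusted p = 0.510), though it passed without wildtype library 3 (-0.29, adjusted p = 0.0368), and trended normalization turned it to 0.11. Bptf, the NURF subunit that reads trimethylated histone H3 lysine 4, had -0.23 (adjusted p = 0.685).

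Baz1a (ACF1), the other ISWI partner, went the opposite way, and is named here after its values were seen. Its promoter peak held 17.5, 17.8 and 18.5 CPM in knockout, against 12.8, 13.9 and 17.0 CPM in wildtype. All knockout libraries were above all wildtype ones, at 0.30 ± 0.178 (SE, adjusted p = 0.678), 0.34 with trended normalization and 0.43 without wildtype library 3. Of its 13 distal peaks, 2 were higher in knockout at an unadjusted p under 0.05 (3.6% of all distal peaks) and 0 lower (2.7%). The distal peaks were mixed in sign, with 6 of the 13 negative.

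In the other CHD genes, 4 of 5 main promoter peaks were negative and 3 were lower at an unadjusted p under 0.05 (30.2% of all genes, and 52.8% of those in the strongest decile). Chd6 has the highest promoter level per kilobase of all 39. It held 109, 103 and 114 CPM in knockout, against 151, 131 and 149 CPM in wildtype (chr2:161108987-161109404). The groups were well apart, at -0.40 ± 0.0753 (SE, adjusted p = 0.0664), -0.37 without wildtype library 3 (adjusted p = 0.00723) and -0.08 with trended normalization. Chd1, which binds trimethylated histone H3 lysine 4 at active promoters, held 71.4, 75.8 and 72.0 CPM in knockout, against 90.9, 83.2 and 92.1 CPM in wildtype (chr17:15704305-15705233). No values overlapped, and the log2 fold change was -0.28 ± 0.0780 (SE, adjusted p = 0.214), or -0.01 with trended normalization. Chd9 and Chd7 had -0.34 and -0.35 (adjusted p = 0.388 and 0.634). Ino80, the ATPase of the INO80 complex, held 96.9, 96.0 and 97.9 CPM in knockout, against 109, 119 and 116 CPM in wildtype (chr2:119477555-119478449). It was lower in every knockout library, at -0.25 ± 0.0684 (SE, adjusted p = 0.215), and 0.05 with trended normalization. For Smarca4, Smarcc1, Actl6a, Bcl7b, Arid1a, Arid2, Brd9, Chd4, Chd1 and Ino80, leaving out wildtype library 3 gave log2 fold changes from -0.28 (Bcl7b) to -0.11 (Chd4 and Arid1a) at adjusted p-values from 0.0501 (Actl6a) to 0.770 (Chd4).

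The 2 strongest peaks of Chd2 had log2 fold changes of opposite sign. At the start site, in a peak named after its values were seen, it held 20.9, 21.7 and 20.0 CPM in knockout, against 15.0, 19.8 and 15.4 CPM in wildtype. All knockout values were the higher ones, at 0.32 ± 0.170 (SE, adjusted p = 0.629), 0.40 with trended normalization and 0.27 without wildtype library 3. In the intron, 3843 bp downstream (chr7:73537651-73538154), lies the distal peak with the highest level per kilobase of all remodeler genes, with 141, 133 and 131 CPM in knockout, against 189, 170.2 and 162 CPM in wildtype. There all knockout values were the lower ones, at -0.36 ± 0.0706 (SE, adjusted p = 0.0688), -0.40 without wildtype library 3 (adjusted p = 0.00177) and -0.02 with trended normalization. A test of whether the peaks of a gene differ among themselves (edgeR diffSpliceDGE, Benjamini-Hochberg over 15839 genes) gave Chd2 an adjusted p of 0.254. With trended normalization the same test gave Chd2 an unadjusted p of 0.212. At an unadjusted p under 0.05 it picked out 8 of 39 testable remodeler genes (11% of all genes), namely Chd2, Chd1, Chd9, Bcl7a, Arid1b, Smarca2, Smarcd3 and Gatad2a, and 3 with trended normalization (10.4% of all). It called 0 remodeler genes at an adjusted p under 0.05 (0.0694% of all genes, 11 of them). When wildtype library 3 was left out, it picked out 15 of the 39 at an unadjusted p under 0.05 (21.9% of all genes) and called 3 at an adjusted p under 0.05 (4.89%).

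Distal peaks lay on both sides of 0. Of the 313, 18 were lower in knockout at an unadjusted p under 0.05 (5.75%, against 2.7% of all distal peaks) and 9 were higher (2.88%, against 3.6%). The median log2 fold change was -0.03, against 0.06 over all distal peaks, and 164 were negative (52.4%, against 42.8%). Every knockout library lay below every wildtype library at 23 peaks (7.35%, against 4.14%) and above at 26 (8.31%, against 8.62%). Of the 27 distal peaks in the strongest decile, 7 were lower (25.9%, against 13.4%). With trended normalization 16 were lower (5.11%, against 3.24% of all distal peaks) and 3 higher (0.958%, against 2.36%). When wildtype library 3 was left out, the counts were 22 lower (7.03%, against 5.41%) and 21 higher (6.71%, against 6.26%). In that fit 6 peaks passed an adjusted p of 0.05 (1.38% of all distal peaks did), and the median was 0.05 against 0.05. With both changes the counts were 11 lower (3.51%, against 4.96%) and 21 higher (6.71%, against 4.9%).

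The distal peaks with the smallest p include strong ones that resemble the promoters. An intronic peak of Chd9 (chr8:90908048-90908679), 79529 bp into the gene, held 84.8, 78.6 and 86.9 CPM in knockout, against 115, 104 and 115 CPM in wildtype. Every knockout library was lower, at -0.41 ± 0.0769 (SE, adjusted p = 0.0645), -0.38 without wildtype library 3 (adjusted p = 0.00609) and -0.13 with trended normalization. The peak over the RefSeq start of Chd8, a gene whose human counterpart is linked to autism, held 98.1, 97.1 and 93.6 CPM in knockout, against 125, 120.4 and 121 CPM in wildtype (chr14:52257374-52258100). Its groups were tight and apart, at -0.34 ± 0.0659 (SE, adjusted p = 0.0688), -0.34 without wildtype library 3 (adjusted p = 0.00905) and -0.04 with trended normalization. Another peak assigned to Chd8, at -6994 bp from the deposited start (chr14:52244406-52244725), held 51.6, 51.9 and 49.8 CPM in knockout, against 61.4, 70.0 and 55.9 CPM in wildtype. It too was lower in each knockout library, at -0.29 ± 0.101 (SE, adjusted p = 0.366), and passed without wildtype library 3 (-0.36, adjusted p = 0.0276).

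A different set of small p-values came from weak peaks with large fold changes, which trended normalization left in place. At Bcl7a, a peak at -29065 bp from the start (chr5:123315223-123315542) held 2.84, 3.17 and 2.77 CPM in knockout, against 5.84, 5.22 and 7.38 CPM in wildtype. The log2 fold change was -1.07 ± 0.252 (SE, adjusted p = 0.127), with no overlap, -1.15 with trended normalization and -0.91 without wildtype library 3. In Arid1b, a pair of neighbouring intronic peaks 168475 and 168622 bp from the start (chr17:5163487-5163610 and chr17:5163660-5163732) had the most negative values of all remodeler peaks. The peak at 168475 bp rested on 6, 6 and 10 reads in knockout, against 14, 14 and 31 reads in wildtype. The peak at 168622 bp rested on 3, 7 and 5 reads in knockout, against 12, 10 and 17 reads in wildtype. Both were separated by group, at -1.77 ± 0.466 and -1.73 ± 0.497 (SE, adjusted p = 0.180 and 0.235), or -1.38 and -1.57 without wildtype library 3, and both are too thinly covered for a firm size.

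Chd7, which has the most distal peaks, had 5 of 46 lower at an unadjusted p under 0.05 (2.7% of all distal peaks) and 1 higher (3.6%). Its intronic peak at 115651 bp (chr4:8805952-8806162) held 2.43, 2.38 and 1.99 CPM in knockout, against 4.16, 3.34 and 5.37 CPM in wildtype. The groups were apart, at -0.92 ± 0.286 (SE, adjusted p = 0.286), or -0.71 without wildtype library 3. The intronic peak at 120827 bp (chr4:8811054-8811411) held 10.1, 12.7 and 10.7 CPM in knockout, against 19.4, 12.7 and 24.2 CPM in wildtype. Its groups almost touched, with the highest value in wildtype library 3, and the log2 fold change was -0.75 ± 0.236 (SE, adjusted p = 0.296), or -0.52 without that library. The strong peak of Chd7 at -43006 bp from the start (chr4:8647077-8647722) held 68.1, 74.3 and 86.8 CPM in knockout, against 98.1, 90.5 and 87.8 CPM in wildtype. It was lower throughout, at -0.27 ± 0.0961 (SE, adjusted p = 0.383), 0.0045 with trended normalization and -0.30 without wildtype library 3.

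Mta3 and Gatad2b complete the distal peaks with the smallest p. The Mta3 peak in its intron at 66756 bp (chr17:83772734-83773104) held 17.9, 19.9 and 17.0 CPM in knockout, against 29.2, 20.5 and 29.7 CPM in wildtype. Like the Mta3 promoter peaks it was lower in every knockout library, at -0.53 ± 0.173 (SE, adjusted p = 0.315), and -0.44 both with trended normalization and without wildtype library 3. The distal peaks of Mta3 were mixed: of 13, 8 were negative. At an unadjusted p under 0.05, 1 was lower (2.7% of all distal peaks) and 1 was higher (3.6%). Gatad2b is the exception among the distal peaks with the smallest p. Its peak 20016 bp downstream of the deposited start (chr3:90361600-90361740) was higher, with 3.53, 3.30 and 2.51 CPM in knockout, against 1.59, 1.97 and 1.19 CPM in wildtype. That is 0.98 ± 0.323 (SE, adjusted p = 0.327), or 0.81 without wildtype library 3, and 0 of the 5 Gatad2b peaks had a negative log2 fold change. The peak over the RefSeq start of Gatad2b, assigned to Mir7012, lay on the other side, at -0.21 (adjusted p = 0.401).

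**Figure D4:**
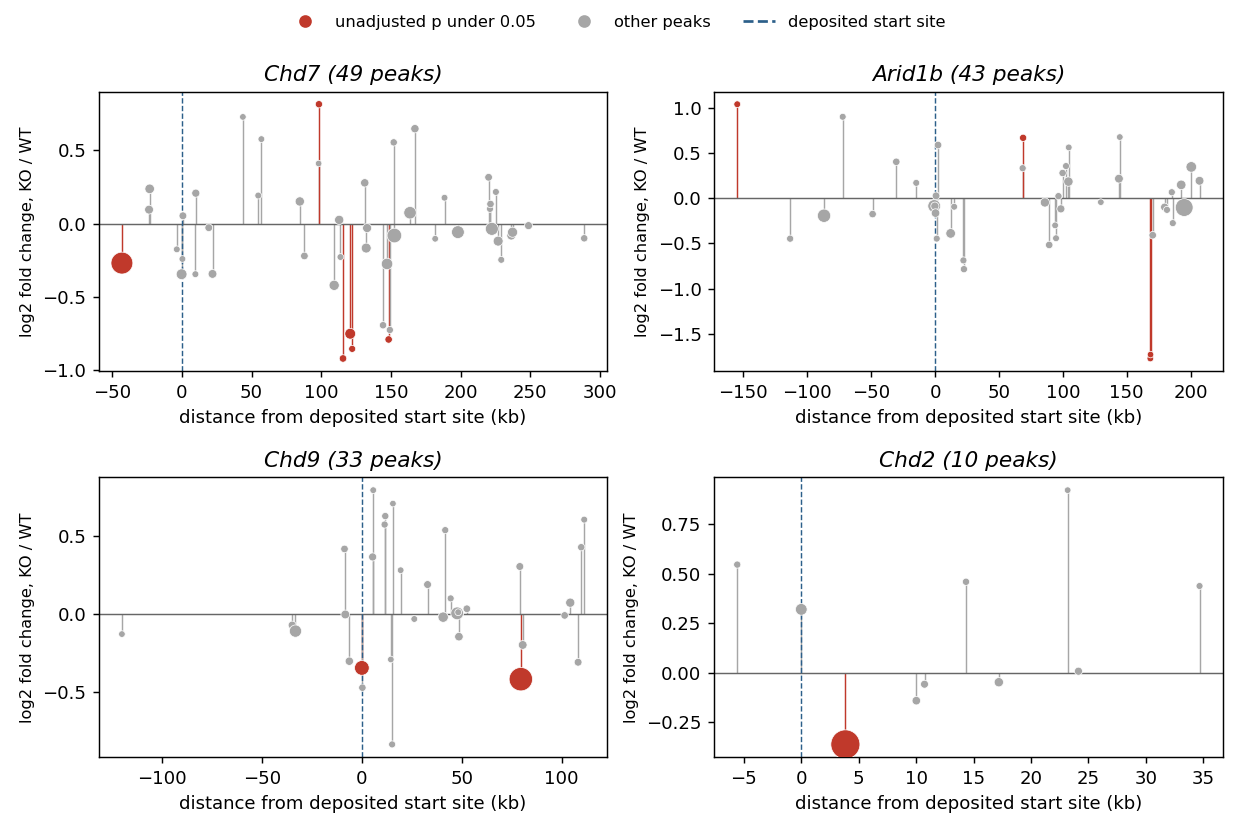
Log2 fold change (knockout over wildtype, y axis) of each peak of Chd7, Arid1b, Chd9 and Chd2 against its distance from the deposited start site in kb (x axis). Point area grows with mean CPM, red marks an unadjusted p under 0.05 and the dashed line the start site; the large red points of Chd7, Chd9 and Chd2 lie between -0.41 and -0.27, and the pair of small red points in Arid1b at -1.77 and -1.73.

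Reads were also summed per gene, which puts more reads behind each value. Over promoter peaks, 17 of 39 gene sums were lower in knockout at an unadjusted p under 0.05 (27.8% of all genes) and 0 higher (0.746%), with a median of -0.22 against -0.18. The lowest adjusted p was 0.0776, shared by Mbd3, Mbd2, Smarca5 and Chd6, and 0 sums of any gene passed (0%). Without wildtype library 3, 18 promoter sums were lower (29.3% of all genes) and 1 higher (2.03% of all genes). In the same fit 8 distal sums were lower (8.08% of all genes) and 2 higher (6.3% of all genes). There 12 remodeler sums passed an adjusted p of 0.05, as 8.81% of all sums did. Mbd3 summed to 173 ± 8.06 CPM in knockout and 223 ± 1.26 CPM in wildtype (SD, n = 3 each), and its log2 fold change was -0.37. Mta3 summed to 15.2 ± 0.515 CPM in knockout and 22.0 ± 3.17 CPM in wildtype, at -0.54 (adjusted p = 0.120) and -0.51 with trended normalization. Over distal peaks, 5 of 36 sums were lower (2.63% of all genes) and 1 was higher (2.81% of all genes), that of Gatad2b at 0.46 (adjusted p = 0.246). The lower ones were Chd8 at -0.32, Chd2 at -0.29, Bcl7a at -0.46, Mta3 at -0.23 and Ss18 at -0.32. Their adjusted p-values ran from 0.0777 (Chd8) to 0.268 (Ss18). Trended normalization put these between -0.39 (Bcl7a) and -0.06 (Mta3). For sums, the trended normalization was fitted anew to promoter and distal sums together, so its values differ from those of single peaks. Chd6, with 1 promoter peak, had -0.23 as a sum and -0.08 as a peak. On these sums 8 promoter values were lower (10.5% of all genes) and 0 higher (1.03% of all genes). Of the distal sums, 2 were lower (1.45% of all genes) and 2 higher (7.09% of all genes).

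As shares of the reads in promoter peaks, remodeler promoters took 0.457%, 0.457% and 0.455% in the knockout libraries, against 0.471%, 0.467% and 0.474% in the wildtype libraries. The groups did not overlap, and the differences are small. Promoter peaks of all genes together took 50.2%, 50.4% and 49.9% of the reads in peaks in knockout. In wildtype they took 53.3%, 52.5% and 55.8%, also without overlap. Of the reads in distal peaks, remodeler distal peaks took 0.477%, 0.479% and 0.458% in knockout, against 0.493%, 0.488% and 0.539% in wildtype, with wildtype library 3 the highest. A list of 42 further remodeler genes (38 with a peak), such as INO80 and SRCAP subunits, was set beside them. Of its 59 promoter peaks, 17 were lower at an unadjusted p under 0.05 (28.8%, against 19.1% of all promoter peaks) and 0 higher, with a median of -0.15, equal to that of all promoter peaks. Of its 159 distal peaks, 4 were lower (2.52%, against 2.7%) and 2 higher (1.26%, against 3.6%), with a median of 0.07, and the lowest adjusted p on the list was 0.0578.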

How the data were processed

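ATAC-seq was read from 1 deposited table of 109859 peaks in 6 libraries of Lin- bone marrow cells, 3 Mel18 knockout and 3 wildtype by the genotype in the labels. The deposited values are raw read counts per peak without normalization, per the file headers. The authors' log2 fold changes and the authors' p-values per peak were used as a check: an edgeR likelihood ratio test came within 1.16e-07 of the deposited p-values, and of the 389 remodeler peaks, 0 pass an adjusted p of 0.05 in the authors' deposited table (lowest 0.227). Per the submitters' processing notes the build is mm10 and the notes name MACS2 2.1.1, Bowtie2 1.2.2, Trimmomatic 0.40, MultiQC 0.11.5, FastQC and Picard without saying what each did. How reads were counted, whether they were offset for Tn5 and whether duplicates were removed is not given in the sources used here. Libraries are numbered within a genotype in the table but mice across genotypes in the labels, so columns were matched to groups and not to single mice. Another 12 per-library columns were left unused. Peak starts are printed counting from 1.

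The counts were tested with edgeR 4.0.16 in R 4.3.3 (quasi-likelihood, robust, TMM, filterByExpr, which removed 0 peaks), with p-values adjusted by Benjamini-Hochberg across the table and called under 0.05. This fit gave each adjusted p that has no other tool named. CPM values use TMM library sizes, and the SE was taken as the absolute log2 fold change over the root of its F statistic. Depth was 12000808 to 16709921 reads, a median of 40 to 63 reads per peak. Reads summed per gene, and the peaks of a gene against each other (diffSpliceDGE), were tested across all genes. Trended normalization used a loess curve (span 0.3) of each library against level as offsets, fitted separately to the peaks and to the gene sums. The median log2 fold change over all peaks was 0.14 when scaled by library size alone and 0.02 with TMM. A distance is from the middle of a peak to its start site. The pipeline was tested on simulated data. Alternatives used DESeq2 1.42.0 and limma 3.58.1.

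The genes, the lists and the tests were chosen with earlier results of these data known. Named with values were the main promoter peaks of the 12 genes with the smallest p and of the gene with the highest level in each group, the 10 distal peaks with the smallest p (at most 2 per gene), the 5 strongest distal peaks, and genes with no promoter peak or with the most or fewest peaks. Other names are marked as chosen after their values were seen. RefSeq tables of GRCm38.p6 gave gene positions and promoter sequences.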

Additional observations from a re-analysis of the deposited data

How the results depend on the processing

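The processing changed how many peaks of the whole table were called, and with it some remodeler calls. Against 0 calls at an adjusted p under 0.05, DESeq2 size factors in edgeR gave 468 (8 of them remodeler peaks), limma-voom 279 (6), DESeq2's Wald test 3, the likelihood ratio test 3, and wildtype library 3 left out with trended normalization 114 (0). Leaving out 1 library at a time gave 0 to 3013, with 3013 without wildtype library 3 (14 remodeler peaks) and 534 without wildtype library 2 (5).

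The 21 lower promoter peaks at an unadjusted p under 0.05 became 10 with library size alone, 6 with trended normalization, 12 with DESeq2's Wald test, 13 with the likelihood ratio test, 2 with trended normalization without wildtype library 3, and 15 to 24 with 1 library left out. In the same order, the share of all promoter peaks called lower moved from 19.1% to 8.56%, 3.96%, 11.8%, 11.8% and 4.53%. With 1 library left out that share was 13.6% to 23.2%. The 0 higher ones became 3, 1 and 2 with library size alone, with trended normalization, and with trended normalization without wildtype library 3, and 0 to 1 with 1 library left out. Of all promoter peaks, 1.11% were higher in the main fit, and 2.64%, 1.82% and 5.91% in these 3 settings. That share was 0.484% to 3.35% with 1 library left out. The 18 lower distal peaks became 10 with library size alone, 11 with trended normalization without wildtype library 3, and 13 to 31 with 1 library left out. Of all distal peaks, 2.7% were lower in the main fit, and 1.27% and 4.96% in the first 2 of these settings. The share was 4.99% without wildtype library 2, the fit that gave 31. The 9 higher ones became 20 with library size alone, 3 with trended normalization, 4 with DESeq2's Wald test, 21 with trended normalization without wildtype library 3, and 2 to 21 with 1 library left out. Of all distal peaks, 3.6% were higher in the main fit and 2.36% with trended normalization. The share was 6.26% without wildtype library 3, and 4.9% with trended normalization as well. The promoter median of -0.22 became -0.10 with library size alone, -0.12 with trended normalization, 0.00304 with trended normalization without wildtype library 3, and -0.30 to -0.13 with 1 library left out. The distal median of -0.03 became 0.0948 with library size alone, 0.0377 with limma-voom, and -0.0572 to 0.0493 with 1 library left out. Gene sums past an adjusted p of 0.05 ran from 0 to 2602 with 1 library left out (2602 without wildtype library 3, 12 of them remodeler sums, and 341 without wildtype library 2, 3 of them). Genes whose peaks differed among themselves, 11 in all, ran from 0 to 774 (774 without wildtype library 3 and 549 without wildtype library 2, 3 remodeler genes each).

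Among the peaks named by rule, trended normalization turned the sign at Gatad2a (0.0145), Mbd3 (0.0103), Ino80 (0.0532), Actl6a (0.12), Bcl7b (0.0427), Brd9 (0.0405), Baz1b (0.11) and the Chd7 peak at -43006 bp from the start (0.00450). With wildtype library 3 left out as well, it did so at Chd1 (0.0258), Ino80 (0.0676), Actl6a (0.0791), Bcl7b (0.00585), Brd9 (0.0309), Arid2 (0.00744), Baz1b (0.0269), Chd4 (0.0499) and Arid1a (0.0743). By its construction this normalization removes differences that follow peak level, and the cause of the other changes was not tested. Of 434 values of named peaks under these settings, 387 kept their direction and their side of the threshold, 30 newly passed it and 17 turned.

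No filter, a filter at a mean of 1 CPM, a 3 kb promoter window, peaks with a single gene name, and RefSeq start sites added to the promoters (an alternative chosen after seeing the data) kept all counts within 1.5 times. Depth limits the weak peaks most, such as the Arid1b pair. No paired analysis was possible because the labels number the mice across both genotypes, so no replicate number is shared.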
